A study of Mus musculus with 18 samples.

Results

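CADM1 and 9 other cell adhesion molecules with immunoglobulin-type domains (CADM3, CADM4, NCAM1, L1CAM, ALCAM, MCAM, VCAM1, ICAM1 and BCAM) were followed through RNA-seq of 2 mouse mammary tumour lines. The genes were selected by symbol, as the rows that carry these names in both deposited count tables. All 10 were found, among 24333 rows that the tables share, and their symbols are kept in capitals as in the tables. CADM1 was chosen by its rise in both 67NR KO cells, so its 67NR values are given as a description without a test. The other 9 belong to the same superfamily. They and the gene lists below were chosen with earlier results of these data known.

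168FARN and 67NR are cell lines derived from mouse mammary tumours, and the study treats both as non-metastatic. Each line was measured as WT cells, *Kmt2c* KO cells and *Kmt2d* KO cells, with 3 replicates per group, 6 groups and 18 libraries of cultured cells. *Kmt2c* and *Kmt2d* encode histone methyltransferases that act at enhancers. The KO cells were made with Cas9 and guides against exon 1 and were kept as sorted pools of edited cells rather than as clones, so a group can hold cells with different edits. The study's sequencing of the targeted regions found a smaller share of mutant reads for *Kmt2c* than for *Kmt2d* in each line. The share was lowest for *Kmt2c* in 67NR, so that group can also hold unedited cells. The KO groups of a line thus differ in completeness of editing as well as in the gene edited. The WT columns carry the name sgControl for 168FARN and WT for 67NR, so the line, the kind of WT cell and the library set cannot be told apart in a comparison of the lines. The labels do not say what a replicate is. By the study's methods, replicates of a line were collections separated by a passage, so p-values measure the spread between passages of cultured cells.

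Total counts per library ran from 14359760 to 43427382 in 168FARN and from 40951775 to 79251530 in 67NR. The mRNA of the edited genes does not check the labels, because editing of exon 1 need not lower it. KMT2C was at 54.6 to 63.1 CPM, the counts scaled to a fixed library size, in 67NR WT and at 85.5 to 95.7 CPM in 67NR *Kmt2c* KO libraries, and KMT2D was at 83.0 to 112 CPM in 67NR WT and at 94.1 to 147 CPM in 67NR *Kmt2d* KO libraries. The ranges in 168FARN were 44.7 to 113 CPM for KMT2C in WT against 46.9 to 96.7 CPM in *Kmt2c* KO, and 104 to 160 CPM for KMT2D in WT against 136 to 296 CPM in *Kmt2d* KO. Of 6 mammary epithelial markers, KRT8 alone reached a mean of 1 CPM in 168FARN, and KRT5 and EPCAM were at 0 in every 168FARN library. The summed level of 5 leukocyte markers was at most 3.72 CPM in any library, that of 4 endothelial markers at most 5.13 CPM and that of 4 Schwann or neural markers at most 14.5 CPM. The replicate 3 libraries stood apart from replicates 1 and 2 in both lines, and over all genes their deviations from the group means correlated with each other, by 0.86 to 0.90 among the 168FARN groups and by 0.54 to 0.72 among the 67NR groups.

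Adhesion molecules of this superfamily span the membrane, hold other cells through their extracellular immunoglobulin-like domains and reach the cytoskeleton through their cytoplasmic tails. CADM1, CADM3 and CADM4 are nectin-like molecules that bind themselves or each other across cell contacts, and CADM1 is known as a tumour suppressor of epithelial cells. NCAM1 and L1CAM are neural adhesion molecules that are also made by some tumours. ALCAM is a ligand of CD6, MCAM is found on endothelium and melanoma, BCAM is a laminin receptor, and VCAM1 and ICAM1 are the ligands by which leukocyte integrins hold endothelium and other cells. VCAM1 and ICAM1 are textbook targets of NF-kappaB.

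The promoter sequences of 4 members that moved in 67NR are shown to let their composition be compared. Promoter windows from RefSeq (GRCm38.p6, not the mm9 build of the counts) covered 250 bases before and 50 bases after a transcript start, and 7 of the 10 genes matched one. CADM1, NCAM1 and VCAM1 had no entry. ICAM1, MCAM and BCAM are given as the members with the 3 lowest log2 fold changes in *Kmt2c* KO cells and L1CAM as the member other than CADM1 that rose there, and capitals mark the motifs searched on both strands.
ICAM1, chr9:21015690-21015989, plus strand: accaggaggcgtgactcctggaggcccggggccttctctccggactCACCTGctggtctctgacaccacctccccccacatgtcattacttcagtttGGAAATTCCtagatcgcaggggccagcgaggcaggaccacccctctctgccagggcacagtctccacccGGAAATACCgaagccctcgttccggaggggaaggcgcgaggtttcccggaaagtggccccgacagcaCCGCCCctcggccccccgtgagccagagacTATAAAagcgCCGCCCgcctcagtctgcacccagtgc
MCAM, chr9:44134408-44134707, plus strand: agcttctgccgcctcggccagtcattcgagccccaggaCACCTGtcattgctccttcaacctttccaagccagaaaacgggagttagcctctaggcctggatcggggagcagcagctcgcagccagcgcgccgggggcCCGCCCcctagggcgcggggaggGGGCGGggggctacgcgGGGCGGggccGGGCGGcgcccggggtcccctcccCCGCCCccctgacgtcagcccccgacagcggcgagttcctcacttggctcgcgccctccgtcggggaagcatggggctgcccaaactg
BCAM, chr7:19770483-19770782, minus strand: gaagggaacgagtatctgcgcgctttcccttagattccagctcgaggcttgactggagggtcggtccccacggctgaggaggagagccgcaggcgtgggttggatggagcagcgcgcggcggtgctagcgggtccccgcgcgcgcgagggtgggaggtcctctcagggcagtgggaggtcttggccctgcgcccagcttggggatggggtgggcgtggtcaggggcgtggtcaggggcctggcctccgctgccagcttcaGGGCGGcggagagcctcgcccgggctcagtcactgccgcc
L1CAM, chrX:73880741-73881040, minus strand: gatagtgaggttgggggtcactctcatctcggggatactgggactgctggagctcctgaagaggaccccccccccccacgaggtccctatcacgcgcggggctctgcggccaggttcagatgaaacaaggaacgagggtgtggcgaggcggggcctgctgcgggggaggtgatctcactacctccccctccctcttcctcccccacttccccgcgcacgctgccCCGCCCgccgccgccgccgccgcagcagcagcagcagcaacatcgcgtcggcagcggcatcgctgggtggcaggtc

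The motifs were GGNNNTTCC (kappaB-like), which 18.5% of all 32851 windows held, GGGCGG (GC box) in 35.7%, TATAAA in 13.6% and CACCTG (E-box) in 20.2%. The ICAM1 window held 2 kappaB-like matches that begin 153 and 84 bases before the start, 2 GC boxes, 1 TATAAA and 1 E-box, and no other member with a window held a kappaB-like match or TATAAA. The MCAM window held 5 GC boxes and 1 E-box, the CADM4 window 4 GC boxes and 1 E-box, the ALCAM window 2 GC boxes and 1 E-box, the BCAM window 1 GC box and the L1CAM window 1 GC box. G and C made up 64.7% of the ICAM1 window, 72.7% of that of MCAM, 71.0% of that of BCAM and 69.3% of that of L1CAM. The genes that fell and the gene that rose both held GC boxes, and a match in these letters is a description of the sequence only. The L1CAM gene has a second RefSeq window, which held 2 GC boxes.

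CADM1 (mm9 chr9:47338256-47665720, plus strand) was low in 67NR WT cells and high in every other group. After scaling within the line, the 67NR WT libraries held 6.17, 6.93 and 4.75 CPM, the *Kmt2c* KO libraries 173, 179 and 170 CPM, and the *Kmt2d* KO libraries 139, 136 and 143 CPM. The lowest KO library was thus far above the highest WT library, and the groups did not overlap, which is the pattern the gene was chosen for. Scaled by total counts alone, the *Kmt2c* KO libraries held 188, 188 and 171 CPM and the *Kmt2d* KO libraries 140, 143 and 102 CPM. How close the replicates lie thus depends on the scaling. In the fit, the log2 fold change came to 4.87 (standard error 0.18) in *Kmt2c* KO and 4.55 (standard error 0.18) in *Kmt2d* KO cells. In 168FARN the WT libraries held 214, 230 and 298 CPM, the *Kmt2c* KO libraries 210, 203 and 313 CPM, and the *Kmt2d* KO libraries 272, 271 and 358 CPM. These 168FARN groups overlapped, with replicate 3 the highest in each. The 168FARN log2 fold change came to -0.03 (standard error 0.24, 95% interval -0.49 to 0.43) in *Kmt2c* KO and 0.28 (standard error 0.24, 95% interval -0.18 to 0.74) in *Kmt2d* KO cells, and the adjusted p of the quasi-likelihood test was 1.0 for each.

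On a scale shared by all 18 libraries, the order of CADM1 was 168FARN *Kmt2d* KO (mean 305 CPM, SD 51.6), 168FARN WT (253, SD 44.1), 168FARN *Kmt2c* KO (248, SD 63.2), 67NR *Kmt2c* KO (168, SD 3.92), 67NR *Kmt2d* KO (135, SD 4.69) and 67NR WT (6.09, SD 1.15), each with n = 3. The 168FARN groups overlapped their neighbours in that order, and no 67NR group overlapped its neighbour. Both 67NR KO groups lay below every 168FARN library, the nearest being a *Kmt2c* KO library at 209 CPM.

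**Figure D1:**
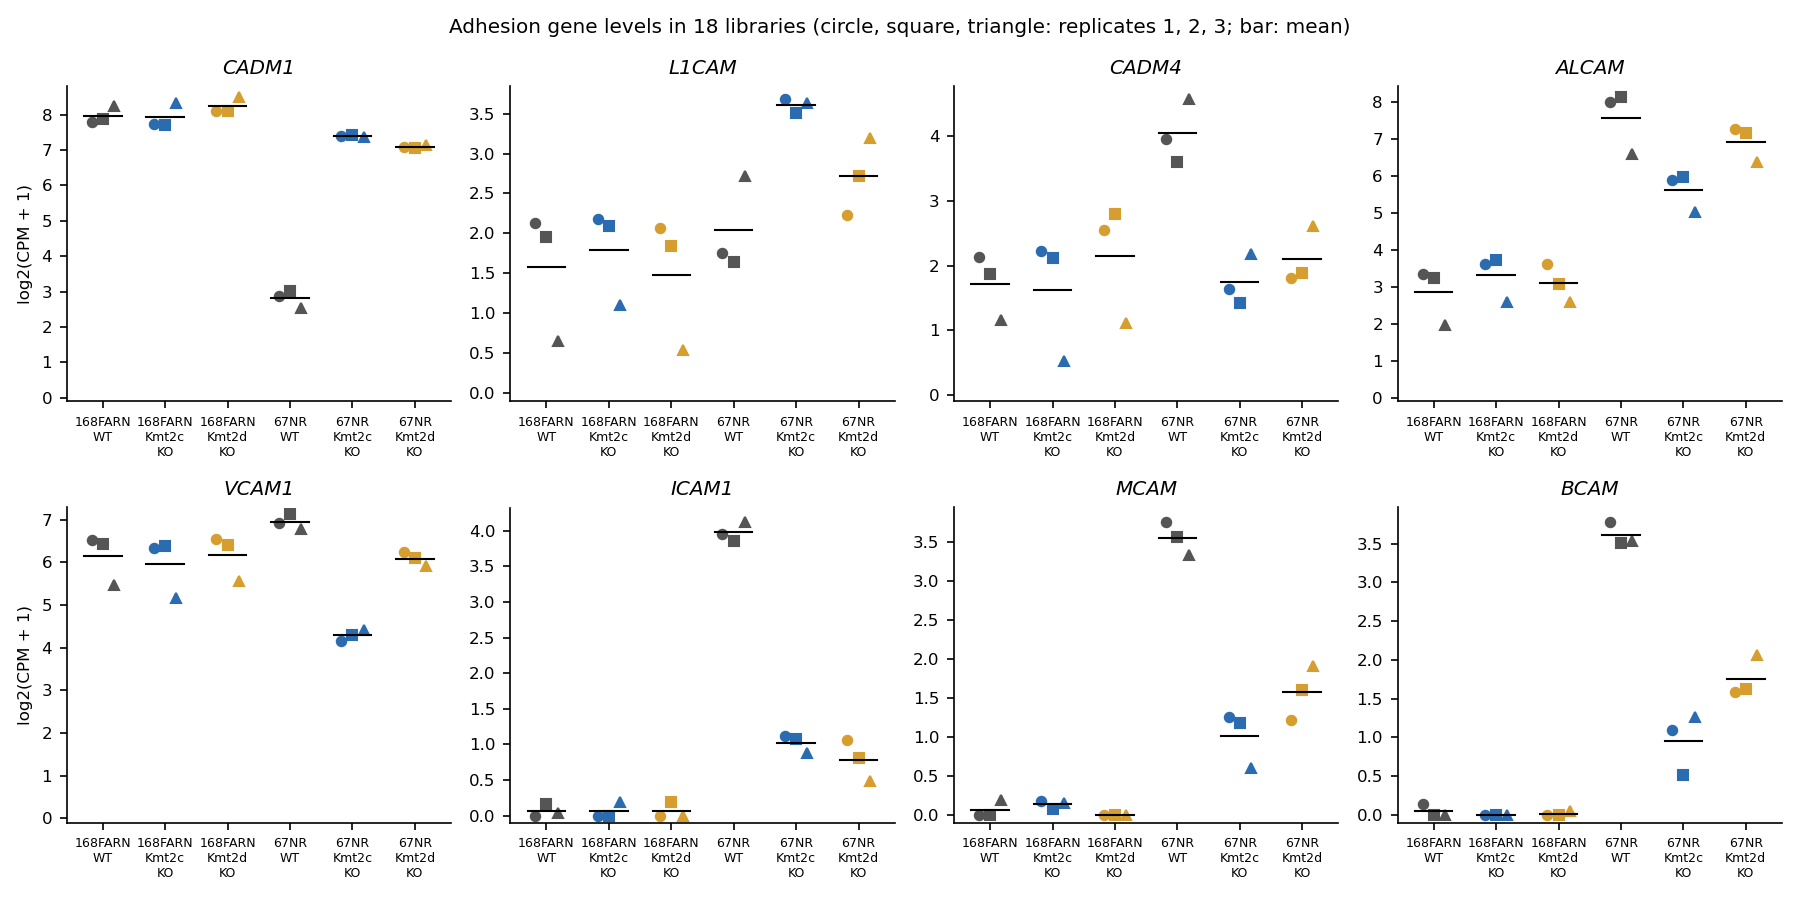
Levels of 8 adhesion genes as log2(CPM + 1), scaled over all 18 libraries, for 3 genotypes (WT and the KO of Kmt2c or Kmt2d) of each line. Each symbol is a library (circle, square and triangle for replicates 1, 2 and 3) and each bar the mean of 3. CADM1 is low in 67NR WT alone, whereas ICAM1, MCAM and BCAM are high in 67NR WT alone; CADM3 and NCAM1, at or near 0 counts, are not drawn.

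The genes with the profile most like that of CADM1 were taken as those with the smallest root mean square difference of log2(CPM + 1) from CADM1 over the 18 libraries, each profile centred on its own mean, among 13882 genes. They were TCEAL8 (0.34), HDGFRP3 (0.37), CD34 (0.38), LONRF3 (0.38) and COLEC12 (0.40), against a root mean square of 1.88 for the CADM1 profile about its own mean. CD34 is a sialomucin of vascular and blood progenitor cells and COLEC12 a scavenger receptor. CD34 had a mean of 8.66 CPM in 67NR WT, 204 CPM in 67NR *Kmt2c* KO and 153 CPM in 67NR *Kmt2d* KO cells, and of 196 to 315 CPM in the 168FARN groups. The libraries share line and depth, and likeness is a description.

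Whether the other members changed in 67NR *Kmt2c* KO cells was tested against WT. P-values are from edgeR's quasi-likelihood test throughout, adjusted over all genes. Of the 9 other members 7 passed the filter on low counts, and 7 of the 9 were called: 6 fell (CADM4, ALCAM, MCAM, VCAM1, ICAM1 and BCAM) and 1 rose (L1CAM). To be called, a gene needed both an adjusted p below 0.1 and a log2 fold change beyond 0.6 in size, and 35.3% of all genes tested were called in this comparison. Of the same 9 members 5 were called in *Kmt2d* KO cells, all lower (CADM4, MCAM, VCAM1, ICAM1 and BCAM), where 25.5% of all genes were called. These calls held when any 1 library was left out, and without replicate 3 of every group 7 of 9 were called in each KO. Here and below, shares of all genes are from this test on all libraries, and none was taken for other settings. Leaving out WT replicate 3 alone added ALCAM (-1.02) and L1CAM (1.44) to the *Kmt2d* KO calls. The KO groups share their WT libraries, so the 2 sets of values are not independent.

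Markers of cell state moved with these genes in 67NR. The summed level of the 6 mammary epithelial markers (KRT8, KRT18, KRT5, KRT14, EPCAM and CDH1) was 2000 to 3304 CPM in the WT libraries, 404 to 728 CPM in those of *Kmt2c* KO and 692 to 1471 CPM in those of *Kmt2d* KO. That of the 5 fibroblast or mesenchymal markers (VIM, COL1A1, COL1A2, PDGFRB and TWIST1) was 296 to 1356 CPM in the WT libraries, 2661 to 4360 CPM in those of *Kmt2c* KO and 2028 to 4122 CPM in those of *Kmt2d* KO. VIM made up nearly all of this sum, with means of 615 CPM in the WT, 3144 CPM in the *Kmt2c* KO and 2665 CPM in the *Kmt2d* KO group. In the same order, TWIST1 (41.2, 85.3 and 77.6 CPM) and PDGFRB (0.89, 6.75 and 4.52 CPM) had higher means in the KO groups, while the means of COL1A1 (2.35, 1.34 and 2.10 CPM) and COL1A2 (0.68, 0.20 and 0.36 CPM) were lower. In 168FARN the epithelial sum was 98.9 to 397 CPM and the mesenchymal sum 6038 to 9246 CPM over the 9 libraries. KRT5 was at 0 in each 67NR group, and the other epithelial markers had means over 1 CPM in 67NR WT. In bulk RNA, fewer cells of a kind and less RNA per cell cannot be told apart, and the part of these markers in the adhesion results was not tested.

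ICAM1 (mm9 chr9:20820404-20833241, plus strand), a ligand of the integrin LFA-1, had the largest fall among the members in *Kmt2d* KO cells. The 67NR WT libraries held 14.2, 13.1 and 16.1 CPM, the *Kmt2c* KO libraries 1.22, 1.14 and 0.871 CPM, and the *Kmt2d* KO libraries 1.13, 0.786 and 0.410 CPM. Every KO library lay more than 10-fold below every WT library. As a log2 fold change from WT, this was -3.74 (standard error 0.36, adjusted p = 6.6e-05) in *Kmt2c* KO and -4.21 (standard error 0.37, adjusted p = 6.6e-05) in *Kmt2d* KO cells. The KO groups differed from each other by 0.47 (95% interval -0.20 to 1.14, adjusted p = 0.70). ICAM1 overlaps the lincRNA MIR1900 on the opposite strand, and because the sources used here do not give the strand used in counting, reads of the pair cannot be told apart.

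VCAM1 (mm9 chr3:115812938-115832606, minus strand), a ligand of the integrin VLA-4, fell in both KO groups by unequal amounts. The WT libraries held 117, 136 and 106 CPM, the *Kmt2c* KO libraries 17.7, 19.4 and 21.0 CPM, and the *Kmt2d* KO libraries 77.7, 70.6 and 60.2 CPM. The 3 groups did not overlap, with *Kmt2d* KO between the other two. The log2 fold change came to -2.63 (standard error 0.17, adjusted p = 7.3e-06) in *Kmt2c* KO and -0.79 (standard error 0.16, adjusted p = 0.0070) in *Kmt2d* KO cells. The difference between the KO groups was -1.84 (standard error 0.16, adjusted p = 0.0046), called with and without replicate pairing and when any 1 library was left out. It was the only member of 9 called between the KO groups by edgeR without pairing, where 1.41% of all genes were called.

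ALCAM (mm9 chr16:52249109-52454187, minus strand) varied widely between replicates. The WT libraries held 249, 269 and 93.1 CPM, the *Kmt2c* KO libraries 59.7, 63.1 and 32.5 CPM, and the *Kmt2d* KO libraries 156, 146 and 83.0 CPM. Replicate 3 was the lowest in each 67NR group, and the *Kmt2d* KO libraries overlapped the WT libraries while the *Kmt2c* KO libraries did not. Its change on the log2 scale was -1.98 (standard error 0.43, adjusted p = 0.0070) in *Kmt2c* KO and -0.67 (standard error 0.42, adjusted p = 0.30) in *Kmt2d* KO cells. Against the WT library of the same number, *Kmt2c* KO held 24.0, 23.5 and 34.9% and *Kmt2d* KO 62.6, 54.2 and 89.1%. Once the replicate number was added to the fit as a block, the *Kmt2d* KO value was -0.58 with an adjusted p of 0.0077, under the fold threshold. The difference between the KO groups, -1.31 (adjusted p = 0.28), was called with the block (-1.32, adjusted p = 4.4e-04).

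CADM4 (mm9 chr7:25267042-25289558, plus strand), a relative of CADM1 found in myelinating and epithelial cells, moved against CADM1. The WT libraries held 14.3, 10.9 and 22.4 CPM, the *Kmt2c* KO libraries 2.20, 1.74 and 3.63 CPM, and the *Kmt2d* KO libraries 2.58, 2.82 and 5.25 CPM. Replicate 3 was the highest in each group, and neither KO group overlapped WT. On the log2 scale, the change was -2.66 (standard error 0.42, adjusted p = 0.0012) for *Kmt2c* KO and -2.17 (standard error 0.41, adjusted p = 0.0053) for *Kmt2d* KO, and the same-number share of WT was 15.3 to 16.2% in *Kmt2c* KO and at most 25.8% in *Kmt2d* KO cells. CADM3, the neuronal member of the family, had 0 counts in all 18 libraries, which allows a level of up to 0.209 CPM in the shallowest library by a limit of 3 counts.

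MCAM (mm9 chr9:43942552-43950810, plus strand), also called CD146, fell in both KO groups. The WT libraries held 12.2, 10.5 and 8.85 CPM, the *Kmt2c* KO libraries 1.44, 1.30 and 0.532 CPM, and the *Kmt2d* KO libraries 1.37, 2.11 and 2.82 CPM. No KO library reached the lowest WT library. The log2 fold change came to -3.25 (standard error 0.42, adjusted p = 4.0e-04) for *Kmt2c* KO and -2.33 (standard error 0.41, adjusted p = 0.0034) for *Kmt2d* KO. The gene overlaps the lincRNA GM10687 on the opposite strand, with the same uncertainty as for ICAM1.

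BCAM (mm9 chr7:20341480-20356365, minus strand), the Lutheran receptor of laminin alpha 5, fell as well. The WT libraries held 12.5, 10.2 and 10.3 CPM, the *Kmt2c* KO libraries 1.18, 0.444 and 1.45 CPM, and the *Kmt2d* KO libraries 2.08, 2.18 and 3.23 CPM. The 3 groups did not overlap. Relative to WT, the log2 fold change came to -3.43 (standard error 0.43, adjusted p = 3.1e-04) for *Kmt2c* KO and -2.14 (standard error 0.40, adjusted p = 0.0051) for *Kmt2d* KO. The difference between the KO groups, -1.29 (adjusted p = 0.26), was called with the replicate block (-1.35, adjusted p = 0.030). BCAM overlaps the lincRNA GM16733 on the opposite strand, with the same uncertainty.

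L1CAM (mm9 chrX:71099117-71141444, minus strand) was the only other member called higher in 67NR *Kmt2c* KO cells. The WT libraries held 2.34, 2.06 and 5.47 CPM, the *Kmt2c* KO libraries 12.4, 10.7 and 11.8 CPM, and the *Kmt2d* KO libraries 3.82, 5.83 and 8.30 CPM. The *Kmt2c* KO libraries lay above all others, while *Kmt2d* KO overlapped WT through replicate 3 of WT. The log2 fold change came to 1.83 (standard error 0.41, adjusted p = 0.0082) in *Kmt2c* KO and 0.87 (standard error 0.41, adjusted p = 0.17) in *Kmt2d* KO cells, the latter called with the replicate block (0.92, adjusted p = 0.021). Each *Kmt2d* KO library held more than the WT library of its number (163, 282 and 152%). The difference between the KO groups, 0.96 (adjusted p = 0.43), was also called with the block (1.05, adjusted p = 0.047). L1CAM overlaps ARHGAP4 and AVPR2, so part of its reads is uncertain.

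**Figure D2:**
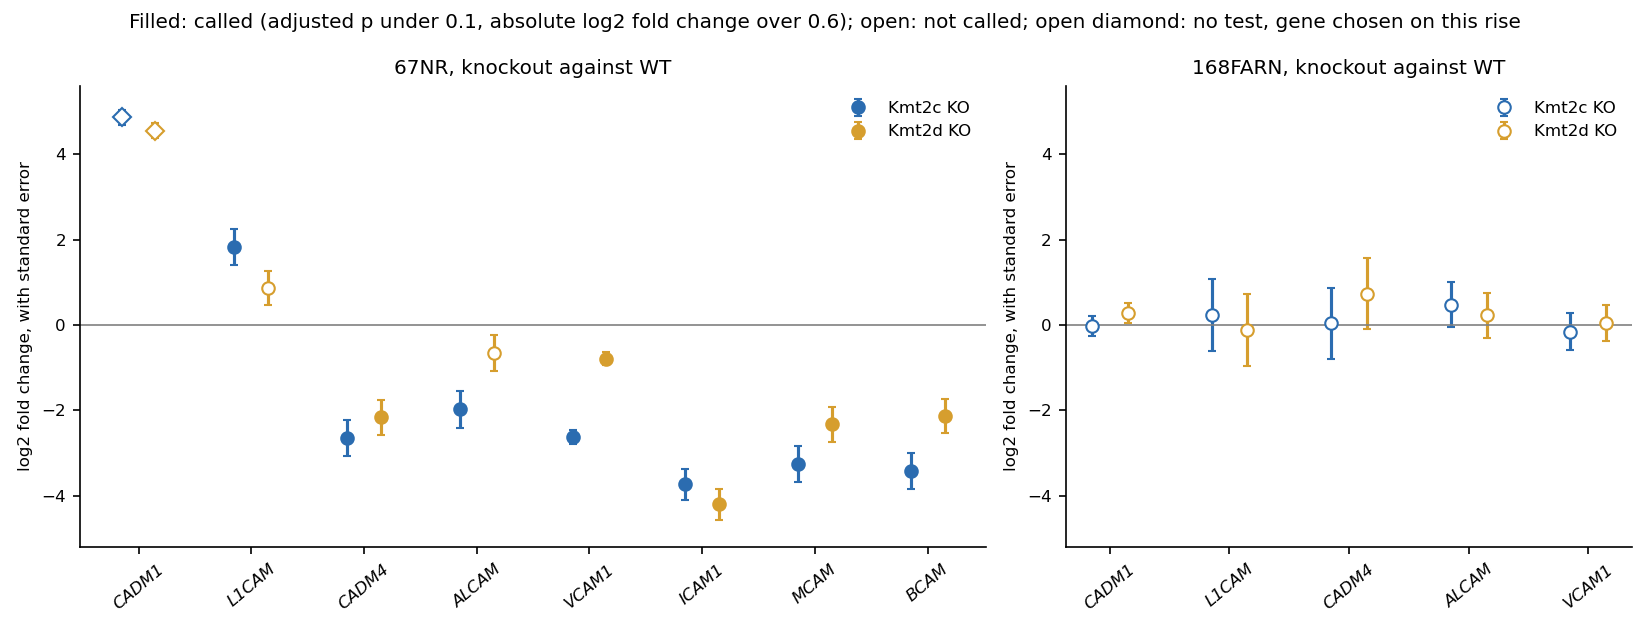
Log2 fold change of KO against WT with its standard error, for the genes tested in 67NR (left) and in 168FARN (right), with Kmt2c KO drawn in blue and Kmt2d KO in yellow. Filled symbols passed the call and open symbols did not, and diamonds mark CADM1 in 67NR, which has no test because it was chosen on this rise. In 67NR the called values of the other members run from -4.21 to 1.83, and in 168FARN all values lie within 0.73 of 0.

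NCAM1 (mm9 chr9:49310257-49607027, minus strand) was near the floor of detection. It had 0 counts in 8 of 9 67NR libraries and 4 counts in *Kmt2d* KO replicate 3, so no 67NR difference was detectable at this depth. In 168FARN the WT libraries held 14, 9 and 10 counts (0.464, 0.268 and 0.232 CPM), and all 6 KO libraries held 0. With the WT level taken as measured, a limit of 3 counts over each KO group puts NCAM1 at least 11-fold lower in *Kmt2c* KO and at least 6.62-fold lower in *Kmt2d* KO cells. A two-sided exact permutation test gave p = 0.1 for each, the smallest that 3 against 3 allows, and without the filter on low counts edgeR gave adjusted p-values of 0.48 and 0.62. Between the WT cells of the lines, 33 counts in 168FARN against 0 in 67NR, the adjusted p without the filter was 0.028. The limits cover counting error of the KO groups only, not that of the 33 WT counts. NCAM1 overlaps GM11149 and GM17616 on the opposite strand, so its reads are uncertain.

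Ratios against the WT library of the same number show how far the replicates of 67NR moved together. CADM4, ALCAM, MCAM, VCAM1, ICAM1 and BCAM were below WT in 3 of 3 pairs in both KO groups. The share of all genes with such a pattern was not taken, and both KO groups were set against the same WT libraries. The *Kmt2c* KO shares ran from 4.37% (BCAM, replicate 2) to 34.9% (ALCAM, replicate 3) and the *Kmt2d* KO shares from 2.55% (ICAM1, replicate 3) to 89.1% (ALCAM, replicate 3). ALCAM and VCAM1 kept more than 50% of WT in each *Kmt2d* KO pair and under 35% in each *Kmt2c* KO pair.

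**Figure D3:**
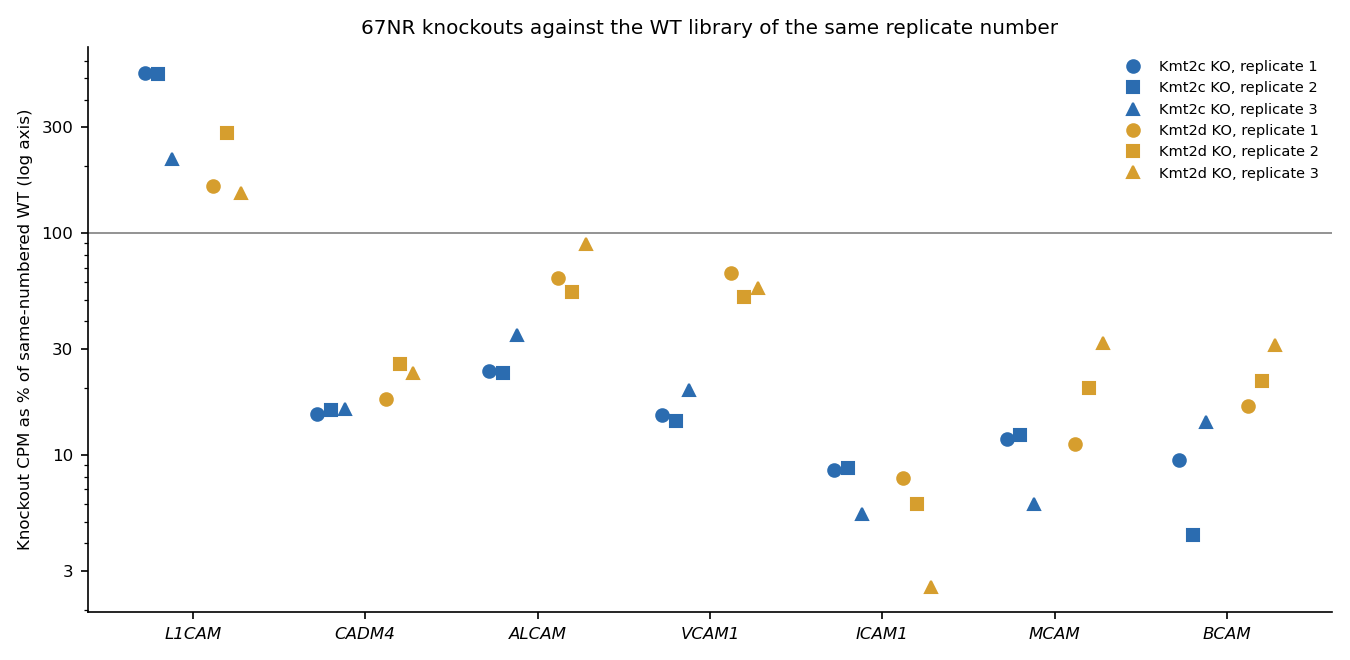
CPM of each 67NR KO library as a percentage of the WT library with the same replicate number, on a log axis with a line at 100%. Blue is Kmt2c KO, yellow Kmt2d KO, and circle, square and triangle are replicates 1, 2 and 3. VCAM1 and ALCAM separate by KO (14.2 to 34.9% against 51.7 to 89.1%), while the ICAM1 shares lie at 2.55 to 8.72% in both, and L1CAM is above 100% in every pair.

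Which adhesion molecule led by level also differed between the groups. Levels were compared between genes as CPM per kilobase of the longest annotated transcript. In 67NR WT cells VCAM1 (mean 36.1, SD 4.68) and ALCAM (34.5, SD 16.4) led and overlapped each other, followed by CADM4 (7.52), ICAM1 (5.82), BCAM (4.62), MCAM (3.60), CADM1 (1.28) and L1CAM (0.64). In 67NR *Kmt2c* KO cells CADM1 (35.2, SD 0.82) came before ALCAM (8.26) and VCAM1 (5.49). In 67NR *Kmt2d* KO cells CADM1 (28.4, SD 0.98) came before ALCAM (20.5) and VCAM1 (19.8). CADM1 was also the highest in each 168FARN group, at 52.0 to 64.0, ahead of VCAM1 at 19.3 to 21.9. The rank of CADM1 in 67NR is part of the pattern it was chosen for.

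**Figure D4:**
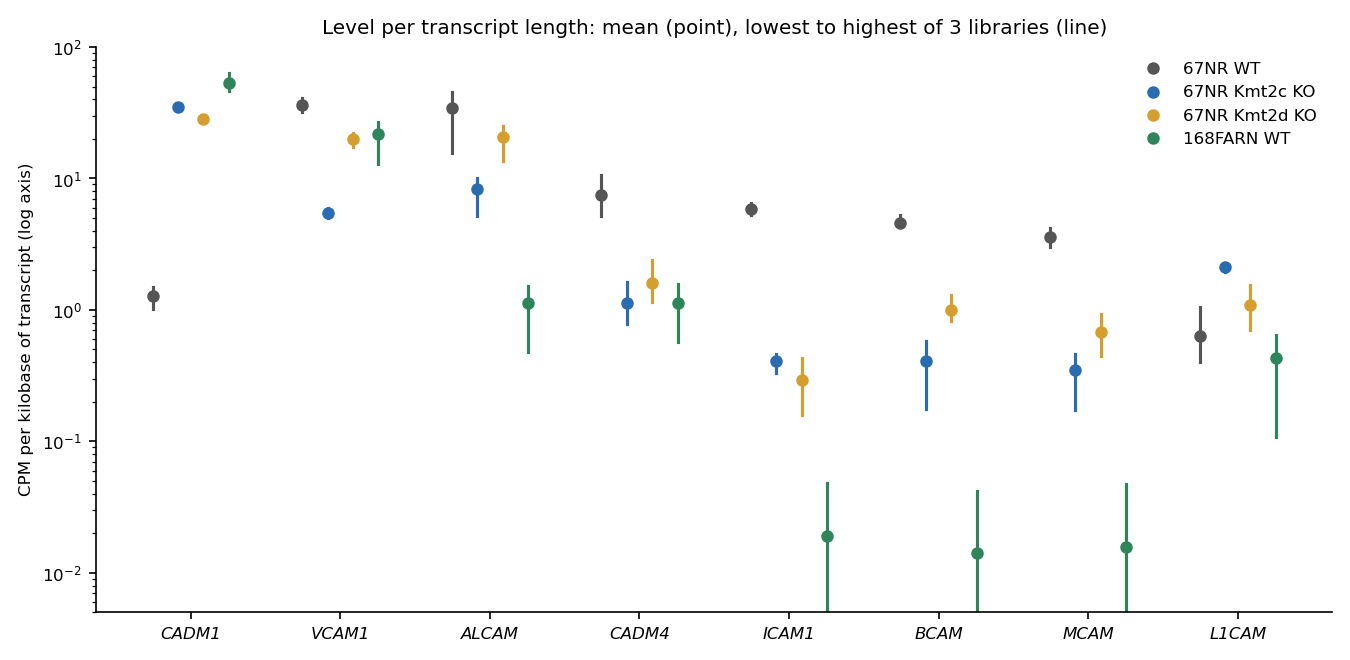
CPM per kilobase of transcript on a log axis for 8 adhesion genes in 67NR WT, Kmt2c KO and Kmt2d KO cells and in 168FARN WT cells. Points are means of 3 libraries and lines run from the lowest to the highest library; lines that reach the lower edge end at a library with 0 counts. CADM1 ranges from 1.28 in 67NR WT to 53.2 in 168FARN WT, and ICAM1, BCAM and MCAM in 168FARN WT lie below 0.02.

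In 168FARN none of the 10 members was called in any of the 3 comparisons of genotypes by edgeR, and 0 had an unadjusted p under 0.05. Of all genes, 0.359% were called in *Kmt2c* KO, 0.286% in *Kmt2d* KO and 0.253% between the KO groups. CADM1, CADM4, L1CAM, ALCAM and VCAM1 passed the filter on low counts, and CADM3, NCAM1, MCAM, ICAM1 and BCAM did not. DESeq2 called 0 of the members in each of these comparisons as well.

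VCAM1 was the most abundant of the 4 tested members other than CADM1 in 168FARN, per length. Its WT libraries held 88.2, 83.6 and 42.7 CPM, the *Kmt2c* KO libraries 78.8, 79.6 and 33.9 CPM, and the *Kmt2d* KO libraries 91.7, 83.5 and 45.4 CPM. The groups overlapped, with replicate 3 the lowest in each, and the log2 fold change was -0.16 (95% interval -0.99 to 0.68) in *Kmt2c* KO and 0.04 (95% interval -0.80 to 0.88) in *Kmt2d* KO cells. ALCAM held 8.88, 8.25 and 2.83 CPM in the WT libraries, 11.1, 11.8 and 4.91 CPM in those of *Kmt2c* KO and 11.1, 7.35 and 4.89 CPM in those of *Kmt2d* KO. Its log2 fold change was 0.48 (95% interval -0.55 to 1.5) and 0.23 (95% interval -0.80 to 1.26). Against the WT library of the same number, ALCAM in *Kmt2c* KO was at 124, 143 and 173%, higher in 3 of 3 pairs. With the replicate block its *Kmt2c* KO value was 0.53 (adjusted p = 0.092), under the fold threshold.

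CADM4 in 168FARN held 3.28, 2.59 and 1.21 CPM in the WT libraries, 3.61, 3.24 and 0.427 CPM in those of *Kmt2c* KO and 4.81, 5.86 and 1.15 CPM in those of *Kmt2d* KO. L1CAM held 3.28, 2.80 and 0.558 CPM in the WT libraries, 3.48, 3.16 and 1.12 CPM in those of *Kmt2c* KO and 3.16, 2.54 and 0.444 CPM in those of *Kmt2d* KO. For both genes the groups overlapped and replicate 3 was the lowest library in each group. The log2 fold changes were 0.04 and 0.73 for CADM4 and 0.23 and -0.11 for L1CAM in *Kmt2c* and *Kmt2d* KO cells, with standard errors of 0.83 to 0.85. Without replicate 3 of every group, CADM4 was called higher in *Kmt2d* KO than in WT (0.86) and lower in *Kmt2c* KO when set against *Kmt2d* KO (-0.63).

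MCAM, ICAM1 and BCAM were at or near 0 in 168FARN. MCAM had 0 to 6 counts per library, with 0 in 5 of 9, ICAM1 0 to 5 counts, with 0 in 5 of 9, and BCAM 0 to 3 counts, with 0 in 7 of 9. The same genes stood at 8.85 to 16.1 CPM in the 67NR WT libraries. No difference between 168FARN genotypes was detectable for them at this depth.

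Between the WT cells of the lines, CADM4, ALCAM and VCAM1 were called higher in 67NR, where 39.2% of all genes were called in either direction. MCAM, ICAM1 and BCAM made up the rest of 6 calls among the 9 other members. They passed the filter through 67NR alone and could only be called higher there, so the count of 6 is not read beside that share. ALCAM had a mean of 208 CPM in 67NR WT and 6.84 CPM in 168FARN WT, a log2 difference of 4.93 (standard error 0.58, adjusted p = 5.8e-06). CADM4 had means of 16.2 and 2.43 CPM, a difference of 2.75 (standard error 0.71, adjusted p = 0.0061). VCAM1 had means of 122.8 and 73.4 CPM, a difference of 0.74 (adjusted p = 0.096) that stayed called only when 67NR WT replicate 3 was left out, of 6 such fits, and was 0.43 with the replicate block. L1CAM overlapped between the lines (3.36 against 2.28 CPM, adjusted p = 0.56). CADM1 differed in the other direction, at 6.09 CPM in 67NR WT against 253 CPM in 168FARN WT. So did NCAM1, which did not pass the filter, with 0 counts in 67NR WT and 33 in 168FARN WT.

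Whether the KO effect differed between the lines was tested as an interaction over all 18 libraries. MCAM, ICAM1 and BCAM never reached 10 counts in a 168FARN library, so no interaction was read for them, which leaves CADM4, L1CAM, ALCAM and VCAM1. For *Kmt2c* KO the effect was more negative in 67NR for 3 of these 4, CADM4 (-2.77, adjusted p = 0.078), ALCAM (-2.54, adjusted p = 0.028) and VCAM1 (-2.56, adjusted p = 0.0019), where 16.0% of all genes were called. For *Kmt2d* KO it differed for CADM4 alone (-2.95, adjusted p = 0.082), where 10.6% were called. In each KO, the CADM4 call was kept only when 168FARN KO replicate 3, 67NR WT replicate 2 or 67NR KO replicate 3 was the library left out, and ended in the other 9 of 12 fits. The replicate block gave CADM4 values of -2.54 (adjusted p = 3.9e-05) for *Kmt2c* KO and -2.80 (adjusted p = 2.0e-05) for *Kmt2d* KO. With the replicate block, L1CAM (1.53, adjusted p = 0.0067) was also called for *Kmt2c* KO, and L1CAM (0.99, adjusted p = 0.083), ALCAM (-0.96, adjusted p = 0.0059) and VCAM1 (-0.90, adjusted p = 9.7e-04) for *Kmt2d* KO. For CADM1 the fitted interaction was 4.81 and 4.21, given without a test.

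Other immunoglobulin-type adhesion genes were followed as a list of 76 symbols, of which 72 were in the tables and 38 passed the filter in 67NR. In 67NR *Kmt2c* KO cells 9 of the 38 rose and 16 fell, 65.8% of those tested beside 35.3% of all genes, with a median log2 fold change of -0.60 beside -0.02 over all genes. In *Kmt2d* KO cells 7 rose and 13 fell, 52.6% beside 25.5% of all genes, with a median of -0.74 beside -0.02. Without replicate 3 of every group the counts were 11 higher and 20 lower in *Kmt2c* KO and 7 higher and 19 lower in *Kmt2d* KO cells. Between the KO groups 0 were higher and 2 lower in *Kmt2c* KO, where 1.41% of all genes were called, and with the replicate block 2 were higher and 9 lower. In 168FARN 26 passed the filter, and 0 were called for *Kmt2c* KO and 1 for *Kmt2d* KO, beside 0.359 and 0.286% of all genes. The block gave 2 lower in the former and 2 higher and 2 lower in the latter. No share of all genes was taken with the block or without replicate 3, so these counts have no background beside them.

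**Figure D5:**
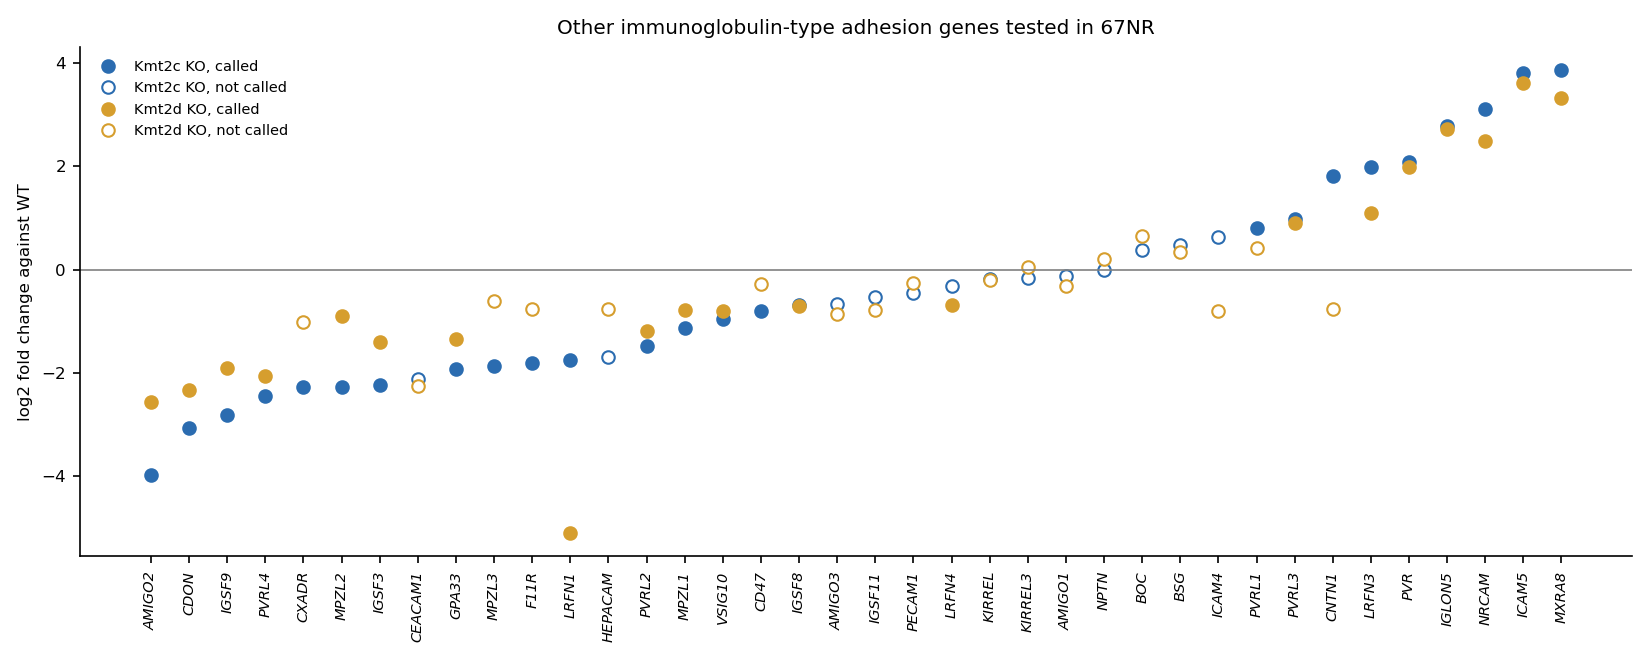
Log2 fold change against WT of the 38 other immunoglobulin-type adhesion genes tested in 67NR, sorted by the value in Kmt2c KO cells (blue), with Kmt2d KO cells in yellow. Filled circles were called and open circles were not. Values in Kmt2c KO cells run from -3.99 (AMIGO2) to 3.86 (MXRA8).

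Among the genes of this list that rose in 67NR, MXRA8, which serves alphaviruses as a receptor, held 2.86, 2.15 and 1.46 CPM in the WT libraries, 33.8, 32.0 and 29.0 CPM in those of *Kmt2c* KO and 21.2, 21.8 and 22.0 CPM in those of *Kmt2d* KO. Its log2 fold change came to 3.86 (standard error 0.25, adjusted p = 8.3e-06) for *Kmt2c* KO and 3.32 (standard error 0.25, adjusted p = 2.6e-05) for *Kmt2d* KO, and no KO library came near WT. PVR, the poliovirus receptor and a ligand of natural killer cell receptors, rose by 1.98 (adjusted p = 0.0065) in *Kmt2d* KO cells, from 64.0, 67.6 and 33.8 CPM to 273, 258 and 124 CPM. PVR was also called higher in *Kmt2c* KO cells, with a log2 fold change of 2.09. LRFN3, a synaptic adhesion molecule, rose by 1.99 (adjusted p = 0.0012) in *Kmt2c* KO cells, at 0.563 to 0.869 CPM in WT and 2.41 to 3.30 CPM in the KO libraries. LRFN3 was also called higher in *Kmt2d* KO cells (1.09).

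ICAM5, a neuronal relative of ICAM1 whose gene starts 3241 bases beyond the end of ICAM1 on the same strand in mm9, rose while ICAM1 fell. Its 67NR WT libraries held 0.162, 0.0573 and 0.135 CPM, the *Kmt2c* KO libraries 2.12, 1.87 and 1.04 CPM, and the *Kmt2d* KO libraries 1.45, 1.88 and 1.08 CPM. Neither KO group overlapped WT, with the KO libraries near 1 to 2 CPM. The WT libraries lay near the floor, so ICAM5 passed the filter on low counts through the KO groups alone. It could thus only be called higher against WT, and its calls, which are included in the list counts above, are not read as a test. As a log2 fold change from WT, the rise was 3.81 (standard error 0.53) for *Kmt2c* KO and 3.61 (standard error 0.53) for *Kmt2d* KO, given as a description. ICAM4, which lies between them, was tested and not called in either KO group. ICAM5 overlaps the antisense genes MIR1900 and GM17470, so its reads are uncertain in the same way.

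Among the genes of the list that fell in 67NR, AMIGO2, a homophilic adhesion molecule first described on neurons, held 28.0, 30.7 and 22.5 CPM in the WT libraries, 2.13, 1.52 and 1.45 CPM in those of *Kmt2c* KO and 3.76, 3.89 and 6.02 CPM in those of *Kmt2d* KO. Its log2 fold change was -3.99 (adjusted p = 1.3e-05) and -2.57 (adjusted p = 1.8e-04), and the KO groups differed from each other by -1.41 (adjusted p = 0.054), a call that was kept only without *Kmt2d* KO replicate 3 when 1 of the 6 libraries compared was left out. With the replicate block the difference was -1.41 (adjusted p = 0.0074). CDON, a co-receptor of Hedgehog ligands, fell as well, with log2 fold changes of -3.07 (adjusted p = 2.9e-05) and -2.33 (adjusted p = 2.1e-04). MPZL2, an epithelial adhesion molecule, fell by 2.28 (adjusted p = 1.8e-05) in *Kmt2c* KO cells, and the log2 difference between *Kmt2c* KO and *Kmt2d* KO cells was -1.39 (adjusted p = 0.011). MPZL2 was also called lower in *Kmt2d* KO cells than in WT (-0.89). PVRL2 (nectin 2) fell by 1.20 (adjusted p = 0.0010) in *Kmt2d* KO cells, and was also called lower in *Kmt2c* KO cells (-1.49).

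The gene called in 168FARN *Kmt2d* KO cells was IGSF3, which held 13.7, 17.6 and 7.29 CPM in the WT libraries, 3.12, 2.98 and 1.33 CPM in those of *Kmt2c* KO and 0.866, 0.141 and 0.185 CPM in those of *Kmt2d* KO. The groups did not overlap, and the log2 fold change in *Kmt2d* KO was -4.96 (standard error 0.76, adjusted p = 0.069), a call that was lost when any 1 of the 6 libraries compared was left out. With the replicate block the IGSF3 value was -4.90 (adjusted p = 9.3e-06).

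Binding partners, adaptors, sheddases and glycosylation enzymes of these molecules formed a list of 29 symbols, of which 23 were tested in 67NR. In *Kmt2c* KO cells 10 rose and 6 fell (69.6% called), with a median of 0.40, and in *Kmt2d* KO cells 9 rose and 4 fell (56.5% called), with a median of 0.22, beside 35.3 and 25.5% of all genes called and a median of -0.02 over all genes. Of the 20 tested in 168FARN 0 were called in either KO by edgeR, beside 0.359 and 0.286% of all genes. With the replicate block 3 were higher and 1 lower in *Kmt2c* KO and 1 higher and 1 lower in *Kmt2d* KO cells. No share of all genes was taken with the block. EPB41L3, a protein 4.1 family adaptor that binds the cytoplasmic tail of CADM1, held 7.07, 9.31 and 7.50 CPM in the 67NR WT libraries, 191, 185 and 227 CPM in those of *Kmt2c* KO and 140, 142 and 139 CPM in those of *Kmt2d* KO. The log2 fold change came to 4.66 (standard error 0.18, adjusted p = 1.7e-06) for *Kmt2c* KO and 4.14 (standard error 0.17, adjusted p = 3.9e-06) for *Kmt2d* KO. In 168FARN it held 138 to 228 CPM in all 9 libraries, so that its 67NR WT libraries were the low ones, as for CADM1.

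FGFR1, a receptor tyrosine kinase that associates with NCAM1 and L1CAM, rose by 3.62 (adjusted p = 5.1e-06) and 3.16 (adjusted p = 1.6e-05) on the log2 scale, from 14.0, 12.7 and 8.73 CPM in 67NR WT to 163, 142 and 133 CPM and to 97.0, 116 and 103 CPM. LAMA5, the laminin chain that BCAM binds, fell with BCAM, from 310, 270 and 316 CPM to 150, 124 and 90.8 CPM in *Kmt2c* KO and to 107, 145 and 148 CPM in *Kmt2d* KO libraries. Its log2 fold change was -1.30 (adjusted p = 0.0014) and -1.16 (adjusted p = 0.0041). MPP3, a scaffold of nectin-like molecules, fell by 4.04 (adjusted p = 0.0017) in *Kmt2c* KO cells, at 1.44 to 1.89 CPM in WT and 0.0272 to 0.190 CPM in the KO libraries. In *Kmt2d* KO cells MPP3 had a mean of 0.415 CPM, against 1.74 CPM in WT. EZR (ezrin), which links ICAM1 to actin, fell by 1.13 (adjusted p = 0.0026) in *Kmt2d* KO cells. It was also lower in the *Kmt2c* KO libraries, at 243, 210 and 207 CPM against 424, 427 and 469 CPM in WT.

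Of 12 NF-kappaB genes, all tested in 67NR, 5 rose and 2 fell in *Kmt2c* KO cells (58.3% called, median 0.40) and 2 rose and 2 fell in *Kmt2d* KO cells (33.3% called, median 0.18), beside 35.3 and 25.5% of all genes. Without replicate 3 of every group 5 rose and 2 fell in *Kmt2d* KO cells, a setting for which no share of all genes was taken. RELB, a subunit of the noncanonical pathway, rose by 1.18 (adjusted p = 0.0032) and 0.84 (adjusted p = 0.024). NFKBIA, an inhibitor, rose by 1.41 (adjusted p = 0.028) in *Kmt2d* KO cells. Its 67NR WT libraries held 102, 109 and 303 CPM, and the *Kmt2d* KO libraries 419, 466 and 481 CPM. The *Kmt2c* KO libraries lay above both groups for NFKBIA, at 654, 698 and 532 CPM. NFKBIB, another inhibitor, rose by 1.02 (adjusted p = 0.0046) in *Kmt2c* KO cells. TNFAIP3 (A20), which is both a target and a brake of the pathway, had log2 fold changes of -1.57 (adjusted p = 5.5e-04) and -0.77 (adjusted p = 0.028), and NFKBIE of -1.10 (adjusted p = 0.0096) and -1.03 (adjusted p = 0.019). In 168FARN *Kmt2d* KO cells, IL1R1 was called higher (1.34, adjusted p = 0.060), a call that was kept only without *Kmt2d* KO replicate 3 when 1 of the 6 libraries compared was left out. With the replicate block the IL1R1 value was 1.32 (adjusted p = 1.6e-04).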

How the data were processed

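The authors aligned strand-specific mRNA reads to mm9 with STAR in the VIPER pipeline and deposited raw counts per gene symbol, 1 table per line, with no normalization. Whether the counting used strand is not given in the sources used here. Columns were matched to samples by name, with 0 left over. The 67NR table repeats 2 symbols, and some of its symbols had been turned into dates.

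Counts were tested with edgeR 4.0.16 (R 4.3.3) by the quasi-likelihood test with robust dispersions, after TMM scaling and the filter on low counts by group, on the 9 libraries of a line, or on all 18 for comparisons of the lines. P-values were adjusted by Benjamini-Hochberg over all genes tested. Standard errors were taken as |log2 fold change|/√F, and 95% intervals use 1.96 standard errors. DESeq2 1.42.0 was an alternative. Scripts were tested on simulated data. CPM use TMM library sizes. Genes were placed with an mm9 annotation.

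The members, gene lists and thresholds, the minimum of 10 counts in 168FARN for an interaction included, were chosen with earlier results of these data known. Named were all members, from the wider list, per comparison and direction, the 3 called genes ranked first by p-value (those of the comparisons between lines were not printed), at most 2 in the partner and NF-kappaB lists, and the 5 genes most like CADM1. Marker and list members were written from general knowledge.

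Deviations from group means of same-numbered libraries had correlations of 0.65 to 0.90 (168FARN) and 0.35 to 0.72 (67NR), and those of other pairs of -0.82 to 0.73 and -0.60 to 0.52. Only the replicate 3 libraries (0.86 to 0.90 and 0.54 to 0.72) lay beyond all other pairs. Those of replicates 1 and 2 (0.65 to 0.74 and 0.35 to 0.43) overlapped them, so the data do not show a pairing of these 2. Replicate numbers were used as the block on this basis, and not from the labels. The study's heatmaps treated each collection time as a batch.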

Additional observations from a re-analysis of the deposited data

Results flagged for a closer look

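The effect of a KO on 3 adhesion genes differed between the lines by edgeR's interaction test over 18 libraries. For *Kmt2c* KO the log2 effect in 67NR minus that in 168FARN was -2.77 for CADM4 (adjusted p = 0.078), -2.54 for ALCAM (adjusted p = 0.028) and -2.56 for VCAM1 (adjusted p = 0.0019), where 16.0% of all genes were called. For *Kmt2d* KO it was -2.95 for CADM4 (adjusted p = 0.082), 1 of the 4 members read, where 10.6% of all genes were called. The CADM4 call ended in 9 of 12 fits that left out 1 library, in each KO, and its 168FARN libraries held 16 to 125 counts. With the replicate block it was called at -2.54 (adjusted p = 3.9e-05) for *Kmt2c* KO and -2.80 (adjusted p = 2.0e-05) for *Kmt2d* KO.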

How the results depend on the processing

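In 67NR, 7 of 9 members in *Kmt2c* KO and 5 of 9 in *Kmt2d* KO cells were called against WT, and when 1 library was left out the counts were 7 to 7 and 5 to 7. Over these members, CADM1 not among them, and the alternatives run for these comparisons, 176 of 182 values kept their direction and side of the threshold and the other 6 passed it anew. Between the 67NR KO groups the count of 1 became 4 with the replicate block, 4 without replicate 3 of every group, 3 with DESeq2 and 5 with DESeq2 and the block. The settings without replicate 3 of every group and with DESeq2 and the block were chosen after seeing the data. In the interaction for *Kmt2d* KO, the count of 1 became 4 with the block, 4 without replicate 3, 4 with DESeq2 and the block, and 0 at an adjusted p under 0.05 with no fold threshold, and it was 0 to 1 when 1 library was left out. In 168FARN the count of 0 became 1 (CADM4) without replicate 3 of every group in *Kmt2d* KO against WT, and 1 (CADM4) in *Kmt2c* KO against *Kmt2d* KO. The cause of these moves was not tested, and no share of all genes was taken under the other settings.

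Small 168FARN log2 fold changes turned sign. In *Kmt2c* KO against WT, CADM4 was -0.20 with the block and -0.25 with DESeq2 and the block. When 1 library was left out, this comparison gave -0.25 to 0.14 for CADM1, -0.36 to 0.55 for CADM4, -0.22 to 0.64 for L1CAM and -0.41 to 0.15 for VCAM1. In *Kmt2d* KO against WT, the ranges were -0.59 to 0.38 for L1CAM, -0.13 to 0.50 for ALCAM and -0.22 to 0.30 for VCAM1. In *Kmt2c* KO against *Kmt2d* KO they were -0.14 to 0.82 for L1CAM and -0.45 to 0.11 for VCAM1. L1CAM between the WT lines was -0.32 with the block, -0.50 without replicate 3 of every group, -0.36 with DESeq2 and the block, and -0.0050 to 0.92 when 1 library was left out. Depth limits NCAM1, MCAM, ICAM1 and BCAM in 168FARN, where libraries held at most 14 counts.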
